A study of Mus musculus with 7 samples.

Results

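The Sox, Gata and T-box genes are 3 families of transcription factors that set up germ layers and organs, and the 5-formylcytosine (5fC) at their starts and along their bodies was measured in mouse embryonic stem (ES) cells. Members were taken from the annotation by symbol, without any measured value: Sox or Tbx followed by a number, Gata2 to Gata6, and T, Eomes and Tbr1, among autosomal protein-coding genes of GENCODE M1 on mm9. The list is not every gene with such a symbol, since some were left out by the rule and are not reported here. It holds 35 genes of 21410, with 16 Sox, 5 Gata and 14 T-box genes. Sox1 was likewise not analysed here.

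Sox proteins bind DNA through an HMG box, GATA factors through zinc fingers that read the GATA motif, and T-box factors through the domain first described in brachyury, the product of T. In pluripotent cells most of these genes are kept silent or low at CpG-rich promoters and are switched on as cells enter mesoderm, endoderm, neural crest or later lineages. 5fC is made when TET enzymes oxidise 5-methylcytosine by way of 5-hydroxymethylcytosine, and thymine DNA glycosylase (TDG) cuts it out so that base excision repair can restore an unmodified cytosine.

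All libraries came from genomic DNA of J1 ES cells (129S4/SvJae), in which 5fC was tagged with biotin and pulled down before sequencing. The 3 conditions were wild type, siRNA control (transfected with non-targeting siRNA) and TDG KD (transfected with a pool of siRNAs against Tdg), with 2 libraries each and 1 shared input library. Wild-type cells grew on γ-irradiated pMEF feeders, while both siRNA conditions were cultured without feeders through repeated transfections, so that the siRNA treatment, the culture and the feeders cannot be told apart between wild type and the rest. The files hold DNA domains and no expression, so neither the ES cell identity nor the loss of Tdg mRNA could be checked in them. In each library the genome was divided into domains called enriched, background or unconfident, each with a mean difference of pulldown and input reads per 100 bp bin. Below, excess is that value averaged over a window, minus the library mean, per M uniquely placed reads. A percentile ranks it among all autosomal genes of the same library. A start (TSS) counted as enriched where the window of 1000 bp on either side touched an enriched domain, and a gene body, which began 1000 bp downstream of the TSS, where at least 50% of it lay in enriched domains.

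The libraries did not resolve 5fC equally. The median enriched domain of the whole genome was 700 bp wide in wild type 1 and between 5900 and 24550 bp in the other 5, and TDG KD 1 had 505 Mb of unconfident sequence against at most 6.30 Mb elsewhere. The library names start with BHAM or EAR, 1 pair of siRNA libraries under each.

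The promoters of 5 members are printed as examples of the sequence at starts with different calls. The bases run from 250 before to 50 after a RefSeq start on the gene's own strand, were found unchanged in mm9, and carry capitals at each CpG. Sox8, Gata5 and Tbx10 lay in enriched domains in all 6 libraries. The window of Tbx18 was enriched in wild type 1 alone, by a domain at 87624271-87625970 that did not reach the printed bases. Sox6 is shown at its most upstream start, whose window was enriched in 5 libraries, and at the start of its longest coding sequence, enriched in none.
Sox8, chr17:25707582-25707881, minus strand: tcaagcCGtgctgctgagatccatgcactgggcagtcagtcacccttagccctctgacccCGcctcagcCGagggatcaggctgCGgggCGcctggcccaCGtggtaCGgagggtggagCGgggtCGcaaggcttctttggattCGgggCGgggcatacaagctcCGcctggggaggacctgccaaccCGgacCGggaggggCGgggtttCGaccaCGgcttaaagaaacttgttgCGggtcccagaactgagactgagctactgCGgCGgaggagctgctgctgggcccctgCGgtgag
Gata5, chr2:180069335-180069634, minus strand: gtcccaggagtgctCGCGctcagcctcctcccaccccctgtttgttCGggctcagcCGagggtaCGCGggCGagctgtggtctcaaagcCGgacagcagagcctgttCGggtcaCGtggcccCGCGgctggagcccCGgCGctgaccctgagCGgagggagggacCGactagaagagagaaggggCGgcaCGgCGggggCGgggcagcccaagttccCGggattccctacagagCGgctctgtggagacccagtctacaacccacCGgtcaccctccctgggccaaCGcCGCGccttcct
Tbx10, chr19:3992502-3992801, plus strand: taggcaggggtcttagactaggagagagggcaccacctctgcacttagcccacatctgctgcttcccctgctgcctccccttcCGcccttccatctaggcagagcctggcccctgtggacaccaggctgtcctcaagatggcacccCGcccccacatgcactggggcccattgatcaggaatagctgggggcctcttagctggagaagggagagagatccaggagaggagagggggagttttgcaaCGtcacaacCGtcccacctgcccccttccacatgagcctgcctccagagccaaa
Tbx18, chr9:87626046-87626345, minus strand: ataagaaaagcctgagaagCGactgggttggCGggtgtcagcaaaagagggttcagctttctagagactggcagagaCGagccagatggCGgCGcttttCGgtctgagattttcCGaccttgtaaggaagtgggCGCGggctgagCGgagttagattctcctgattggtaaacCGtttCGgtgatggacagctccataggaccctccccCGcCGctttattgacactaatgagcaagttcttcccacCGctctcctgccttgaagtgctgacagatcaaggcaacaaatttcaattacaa
Sox6 upstream start, chr7:123182209-123182508, minus strand: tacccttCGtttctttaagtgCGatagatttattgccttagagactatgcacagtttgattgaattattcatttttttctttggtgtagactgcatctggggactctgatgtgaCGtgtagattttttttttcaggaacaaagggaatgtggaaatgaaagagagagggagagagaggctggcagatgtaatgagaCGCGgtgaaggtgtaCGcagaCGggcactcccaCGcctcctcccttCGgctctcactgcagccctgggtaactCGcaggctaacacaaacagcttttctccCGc
Sox6 internal start, chr7:123138551-123138850, minus strand: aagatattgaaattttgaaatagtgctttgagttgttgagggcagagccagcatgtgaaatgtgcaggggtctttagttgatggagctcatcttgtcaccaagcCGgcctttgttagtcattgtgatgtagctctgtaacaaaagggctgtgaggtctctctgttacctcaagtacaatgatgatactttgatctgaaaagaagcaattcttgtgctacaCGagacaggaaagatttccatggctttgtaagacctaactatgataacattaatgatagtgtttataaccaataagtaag

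These 300 bases hold 21 CpGs at Sox8, 26 at Gata5, 4 at Tbx10, 15 at Tbx18, and 11 and 2 at the upstream and internal starts of Sox6. The median of the 32851 RefSeq promoters given was 7. Tbx10, with fewer CpGs than the median, was enriched throughout. The window of Tbx18, with more CpGs than 65.4% of these promoters, was enriched once, outside the printed bases. These promoters were picked by their calls and serve as examples.

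In wild type, 23 of the 35 members had an enriched TSS in both libraries, where 49.9% of all autosomal genes did. The count was 17 members against 36.5% of all genes in siRNA control, and 9 members against 15.6% in TDG KD. The 9 were Sox8, Sox9, Sox10, Sox14, Gata5, Gata6, Tbx2, Tbx10 and Tbx21. In TDG KD 1 some of their domains had pulldown barely above input. The difference per bin was 0.0071 at Gata5, 0.0078 at Tbx10 and 0.0084 at Sox10, up to 0.338 at Sox9. The mean of that library was -0.277, so a positive excess there need not mean much pulldown above input. The low count in TDG KD rests on 1 library. TDG KD 1 had an enriched start at 11 members (background 16.3%), and TDG KD 2 at 29 (background 58.4%). The other libraries gave 34 members in wild type 1 (80.0%), 23 in wild type 2 (51.2%), 24 in siRNA control 1 (47.6%) and 18 in siRNA control 2 (42.6%). The members thus exceeded the share of all genes in each library, by the least in siRNA control 2. Touching is a loose rule in wild type 1, where the start itself was enriched at 21 of the 35 members and background at 14. With at least 50% of the window enriched, 17 members rather than 23 counted in both wild-type libraries. High-CpG promoters are those with a 500 bp stretch of at least 55% GC and a CpG ratio (observed over expected) of at least 0.75 around the start. The 10462 genes with such promoters reached 58.1% in both wild-type libraries, 38.9% in both of siRNA control and 18.8% in both of TDG KD.

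**Figure D1:**
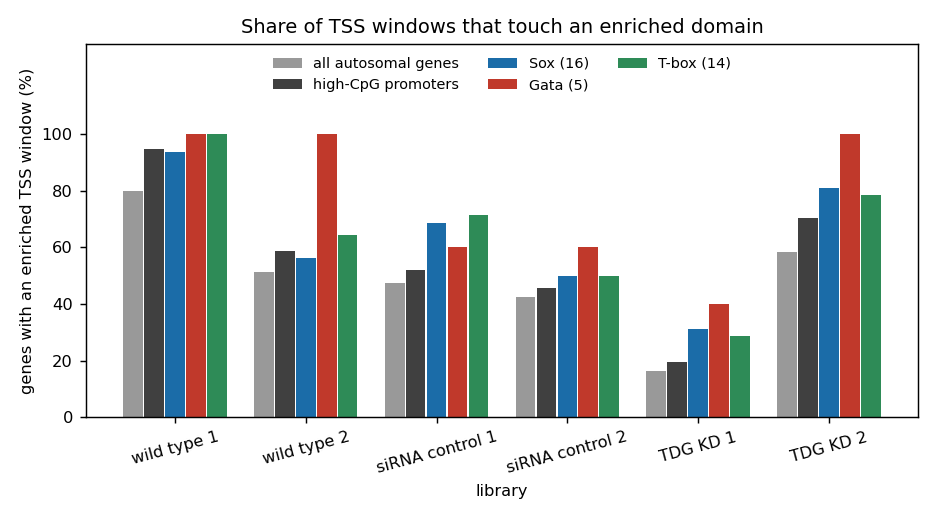
Bars give the percentage of genes whose TSS window touches an enriched domain in each of the 6 libraries, for all autosomal genes, genes with high-CpG promoters and the 3 families. All 5 Gata starts are enriched in both wild-type libraries and in TDG KD 2, and every group is lowest in TDG KD 1.

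The state of the 17 starts enriched in both siRNA control libraries was followed into TDG KD. All 17 were enriched in TDG KD 2. In TDG KD 1, 7 were enriched, 9 were unconfident and 1, T, was background. No member was enriched in both libraries of one siRNA condition and in neither of the other. Of the 35 members, 7 were enriched in all 6 libraries (background 12.5%), and 17 in the 5 libraries other than TDG KD 1 (background 32.6%). Sox6 alone was enriched in none, as were 17.0% of all genes.

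**Figure D2:**
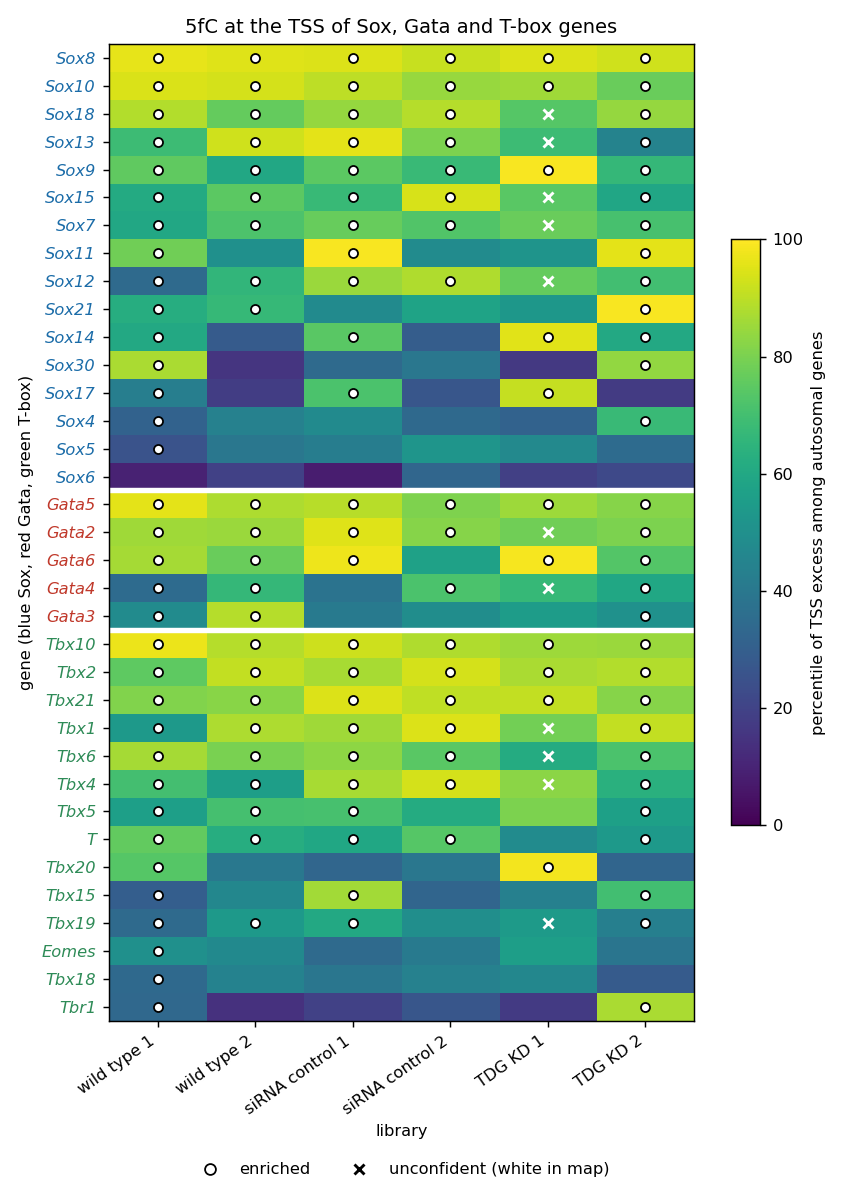
Each row is a gene and each column a library, the colour is the percentile of the TSS excess among autosomal genes, circles mark enriched windows and crosses unconfident ones. Sox8, Sox10, Gata5, Tbx10, Tbx2 and Tbx21 are bright in every library, Sox6 is dark in every library, and Sox11, Sox21, Tbx20 and Tbr1 switch between libraries of the same condition.

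Among the Sox genes, the SoxE group, which acts in neural crest, gonad and cartilage, stood highest. All 18 windows of Sox8, Sox9 and Sox10 over the 6 libraries were enriched. Sox8 had the highest mean percentile of all 35 genes at its TSS, 94.2. Its TSS excess was 0.0614 and 0.0318 in wild type, 0.0247 and 0.0130 in siRNA control, and 0.0189 and 0.0368 in TDG KD. Sox10, a neural crest and glial factor, had 0.0577 and 0.0304 in wild type, 0.0216 and 0.0110 in siRNA control, and 0.0140 and 0.0273 in TDG KD. Both genes ranked at or above the 77.0 percentile in every library, and wild type 1 was the highest library of each. Sox9, needed for cartilage and testis, had 0.0395 and 0.0160 in wild type, 0.0164 and 0.00712 in siRNA control, and 0.0301 and 0.0231 in TDG KD, and its start was the one SoxE window at which both TDG KD libraries were above both siRNA controls.

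The SoxF genes, which act in endothelium and, for Sox17, in definitive endoderm, were split. Sox18 had an excess of 0.0503 and 0.0230 in wild type, 0.0194 and 0.0121 in siRNA control, and 0.0102 and 0.0306 in TDG KD, and was enriched in 5 libraries and unconfident in TDG KD 1. Sox17 had 0.0191 and -0.00659 in wild type, 0.0154 and -0.00289 in siRNA control, and 0.0162 and -0.00765 in TDG KD. It was enriched in 1 library of each condition, and the 2 libraries of each condition fell on either side of the library mean. Sox7 was enriched in 5 libraries.

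The SoxD genes, which carry no transactivation domain of their own, held the lowest Sox starts, with 6 of 18 windows enriched, 5 of them at Sox13. Sox6 had -0.0124 and -0.00632 in wild type, -0.00792 and -0.00234 in siRNA control, and -0.00551 and -0.00627 in TDG KD and Sox5 0.00553 and -0.00100 in wild type, -0.00122 and 0.000751 in siRNA control, and 0.000116 and -0.00182 in TDG KD. Every library of Sox6 was below the library mean. The SoxC genes of neural progenitors (Sox4, Sox11 and Sox12) had 10 of 18 windows enriched and the SoxB genes Sox14 and Sox21 had 7 of 12. Such counts pool genes and libraries. Of all genes, 80.0% and 51.2% had an enriched start in wild type, 47.6% and 42.6% in siRNA control, and 16.3% and 58.4% in TDG KD. Pooled over libraries, the SoxC and SoxB counts were near what these shares give. Sox30, a male germ cell factor, was enriched in wild type 1 and TDG KD 2, by domains of 1500 and 2200 bp at its start.

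All 5 Gata starts had high-CpG promoters and all 5 were enriched in both wild-type libraries, as were 58.1% of all high-CpG promoters. In wild type 1 the start itself was background at Gata3 and Gata4, where narrow domains nearby touched the window. The median Gata start ranked at the 85.7 and 84.9 percentile in wild type, 89.4 and 71.8 in siRNA control and 78.3 and 73.2 in TDG KD. The Sox median lay between 61.7 and 74.6 over the 6 libraries and the T-box median between 59.1 and 77.0. Gata5, which acts in endoderm and heart valves, had a TSS excess of 0.0608 and 0.0274 in wild type, 0.0214 and 0.0101 in siRNA control, and 0.0139 and 0.0294 in TDG KD. Gata2, required for blood stem cells, had 0.0474 and 0.0261 in wild type, 0.0249 and 0.0103 in siRNA control, and 0.0116 and 0.0286 in TDG KD. Both were high in every library, and Gata2 was unconfident in TDG KD 1.

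Gata6 and Gata4 specify primitive endoderm and heart. Gata6 had 0.0483 and 0.0233 in wild type, 0.0287 and 0.00263 in siRNA control, and 0.0254 and 0.0257 in TDG KD, with siRNA control 2 as the one library in which its start was background. Gata4 had 0.0138 and 0.0190 in wild type, -0.00236 and 0.00813 in siRNA control, and 0.00820 and 0.0204 in TDG KD. Gata3, a factor of trophoblast and T cells, had 0.0223 and 0.0279 in wild type, -0.00152 and 1.16e-05 in siRNA control, and 0.00380 and 0.0159 in TDG KD. For both Gata3 and Gata4, the 2 TDG KD values were above the 2 siRNA control values and the wild-type and siRNA control ranges did not overlap either. At Gata4 the margin was narrow, 0.00820 in TDG KD 1, where its start was unconfident, against 0.00813 in siRNA control 2. With 5 genes, the family shares move by 20% with 1 gene, and the families were not tested against each other because they were chosen with earlier results known.

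In mean TSS percentile the T-box genes ran from 33.1 to 89.4, a narrower range than the 18.4 to 94.2 of the Sox genes. Tbx10, a relative of Tbx1, had 0.0635 and 0.0280 in wild type, 0.0229 and 0.0120 in siRNA control, and 0.0140 and 0.0309 in TDG KD. Tbx2, a repressor in heart and limb, had 0.0393 and 0.0288 in wild type, 0.0203 and 0.0137 in siRNA control, and 0.0146 and 0.0332 in TDG KD. Tbx21, which encodes T-bet of T helper cells, had 0.0437 and 0.0251 in wild type, 0.0248 and 0.0125 in siRNA control, and 0.0162 and 0.0294 in TDG KD. These 3 starts were enriched in all 6 libraries. The lowest were Tbr1, a factor of cortical neurons, with 0.0129 and -0.00736 in wild type, -0.00591 and -0.00288 in siRNA control, and -0.00607 and 0.0324 in TDG KD, and Tbx18, of sinus node and somites, with 0.0133 and 0.000920 in wild type, -0.00209 and -0.000951 in siRNA control, and -0.000260 and -0.00404 in TDG KD. The high TDG KD 2 value of Tbr1 had no counterpart in TDG KD 1. By relationship within the family, Tbx2, Tbx4 and Tbx5, which act in limb and heart, had 15 of 18 windows enriched over the 6 libraries. Tbx1 of the pharyngeal arches and its relatives Tbx10, Tbx15, Tbx18 and Tbx20 had 17 of 30, and Tbr1, Eomes and Tbx21 had 9 of 18, 6 of them at Tbx21. These last 2 counts were near what the shares of all genes per library, given above, add up to. Tbx6, a factor of the paraxial mesoderm, was enriched in 5 libraries and unconfident in TDG KD 1.

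T, the mesoderm factor brachyury, had 0.0397 and 0.0170 in wild type, 0.0104 and 0.00855 in siRNA control, and 0.000437 and 0.0175 in TDG KD. It was enriched in 5 libraries and at the library mean in TDG KD 1. Eomes, a factor of trophoblast and definitive endoderm, had 0.0234 and 0.00293 in wild type, -0.00315 and -0.00128 in siRNA control, and 0.00396 and 0.000608 in TDG KD and was enriched in wild type 1 alone. In mean percentile these germ-layer genes ran from Sox10 at 87.5 and Gata6 at 81.7 through T at 62.2 and Gata4 at 56.4 to Eomes at 44.7 and Sox17 at 44.6.

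Annotated coding starts at least 5000 bp apart were present in 7 members (Sox5, Sox6, Sox13, Gata3, Gata4, Tbx4 and Tbx19), and the number of libraries with an enriched start differed between the starts in Sox5, Sox6, Gata4 and Tbx19. At Sox6 the most upstream start had an excess of 0.0206 and 0.0321 in wild type, -0.00792 and 0.0189 in siRNA control, and 0.0170 and 0.0291 in TDG KD. The start of the longest coding sequence, 43658 bp further downstream and shown above with 2 CpGs in 300 bases, was below 0 in all of them. A start 7697 bp from the first was also enriched in 5 libraries, and the starts 192639 and 214037 bp away in none. In siRNA control 1 all of the Sox6 starts were background. At Sox5, the start of the longest coding sequence was enriched in 1 library and one 262452 bp downstream in 3. At the latter, domains touched only 0.45% of the window in wild type 1 and in TDG KD 2, and covered 100% in siRNA control 2. Both starts of Sox13 and all 3 of Tbx4 were enriched in the same number of libraries, 5. At the start of its longest coding sequence Sox13 had 0.0345 and 0.0300 in wild type, 0.0259 and 0.00993 in siRNA control, and 0.00864 and 0.00996 in TDG KD, and Tbx4, a hindlimb factor, had 0.0356 and 0.0135 in wild type, 0.0203 and 0.0137 in siRNA control, and 0.0130 and 0.0220 in TDG KD. Tbx19, a pituitary factor, had 0.0135 and 0.0117 in wild type, 0.0108 and 0.000126 in siRNA control, and 0.00334 and 0.00699 in TDG KD, and was enriched in 4 libraries there and in 5 at a start 7047 bp downstream. The most upstream starts of Gata3 and Gata4 were enriched in 3 libraries each, against 3 and 4 at the starts described above.

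**Figure D3:**
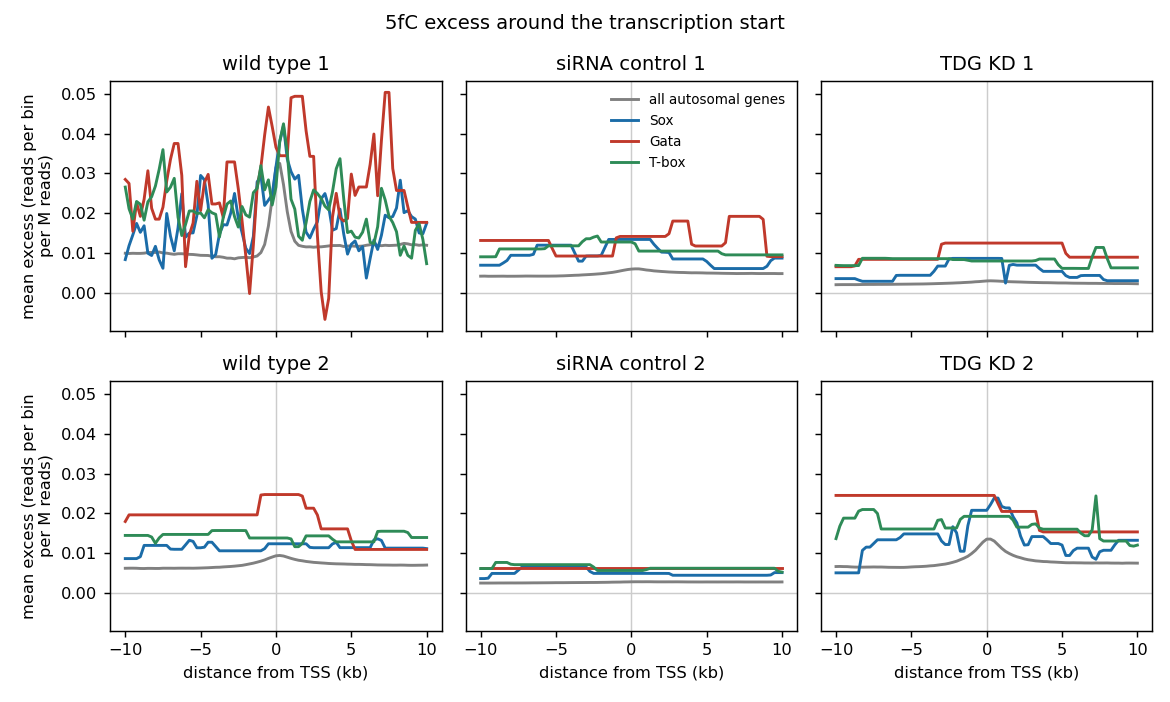
Each panel is a library and plots the mean excess, in reads per 100 bp bin per M reads, from 10 kb upstream to 10 kb downstream of the TSS for the 3 families and for all autosomal genes. At the TSS all 3 family means lie above the mean of all genes in the 5 libraries other than wild type 1, where the T-box mean lies below it, and the flat steps outside wild type 1 are single wide domains of a few genes.

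Over gene bodies, 18 of 35 members were enriched in both wild-type libraries (background 37.4%), 19 in both siRNA controls (40.5%) and 8 in both TDG KD libraries (15.5%). Counting TDG KD 2 alone gave 26 (background 48.9%). By mean percentile the highest bodies were Sox8 at 94.7, Tbx10 at 90.7 and Sox13 at 89.1, and the lowest were Sox30 at 19.5 and Sox6 at 25.7. The body excess of Sox13, an autoantigen and T cell factor, was 0.0624 and 0.0300 in wild type, 0.0259 and 0.00993 in siRNA control, and 0.00864 and 0.0410 in TDG KD. That of Sox30 was -0.00800 and -0.00711 in wild type, -0.00318 and -0.00150 in siRNA control, and -0.00594 and -0.00746 in TDG KD, below the library mean throughout. The body of Sox6, which spans 522743 bp, had -0.00584 and -0.00438 in wild type, -0.00283 and -0.00224 in siRNA control, and -0.00249 and -0.00512 in TDG KD, and was likewise below the mean in every library. The bodies of Sox8 and Tbx10 had 0.0561 and 0.0318 in wild type, 0.0247 and 0.0130 in siRNA control, and 0.0189 and 0.0368 in TDG KD, and 0.0635 and 0.0280 in wild type, 0.0229 and 0.0120 in siRNA control, and 0.0140 and 0.0309 in TDG KD.

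Outside wild type 1, TSS and body had one value in most member genes, as in most genes, because one domain covered both. TSS and body excess were equal to within 1e-09 for 20 to 31 members in the 5 libraries with wide domains, and for 4 in wild type 1. Over all genes they were equal for 9906 of 19004 in TDG KD 2 up to 14258 of 19003 in siRNA control 2, and for 1878 of 18994 in wild type 1. In wild type 1, which resolved starts, the TSS exceeded the body in 23 of 35 members (65.7%) and in 59.3% of all genes with both windows. It did so in 11 of 14 T-box genes, 4 of 5 Gata genes and 8 of 16 Sox genes.

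Gata6 was the clearest gene with 5fC at its start and little along its body. Its body excess was 0.00372 and -0.00117 in wild type, 0.00286 and 0.00263 in siRNA control, and 0.00950 and 0.00194 in TDG KD, all below the TSS value of the same library except in siRNA control 2, where they were equal. The Gata6 domain was 3200 and 12800 bp wide in wild type, 5000 bp in siRNA control 1, and 8300 and 15900 bp in TDG KD, and held no other start. Tbx20 and Sox14, a cardiac and a spinal cord factor, also had domains of their own where they were enriched, of 1800 to 13100 bp and 1600 to 13800 bp.

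Sox8, Sox10, Gata5, Tbx10 and Tbx21 were of the other kind. Outside wild type 1, the Sox8 domain was between 392300 and 800300 bp wide and held 11 to 38 further gene starts, and the Tbx10 domain was 145600 to 433600 bp wide with 10 to 31 further starts. In wild type 1 the Sox8 domain was 8400 bp and held no other start, while the Tbx10 domain was 21100 bp and held 2. A value shared with so many genes is not a measurement of the member alone. Tbx2 and Tbx4, neighbours in the genome, lay in a single domain of 189800 bp in siRNA control 2 and shared no domain in the other 5 libraries. Over the members with an enriched start, 2 of 34 shared the domain with another start in wild type 1, 11 of 23 in wild type 2, 12 of 24 and 16 of 18 in siRNA control, and 6 of 11 and 14 of 29 in TDG KD.

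**Figure D4:**
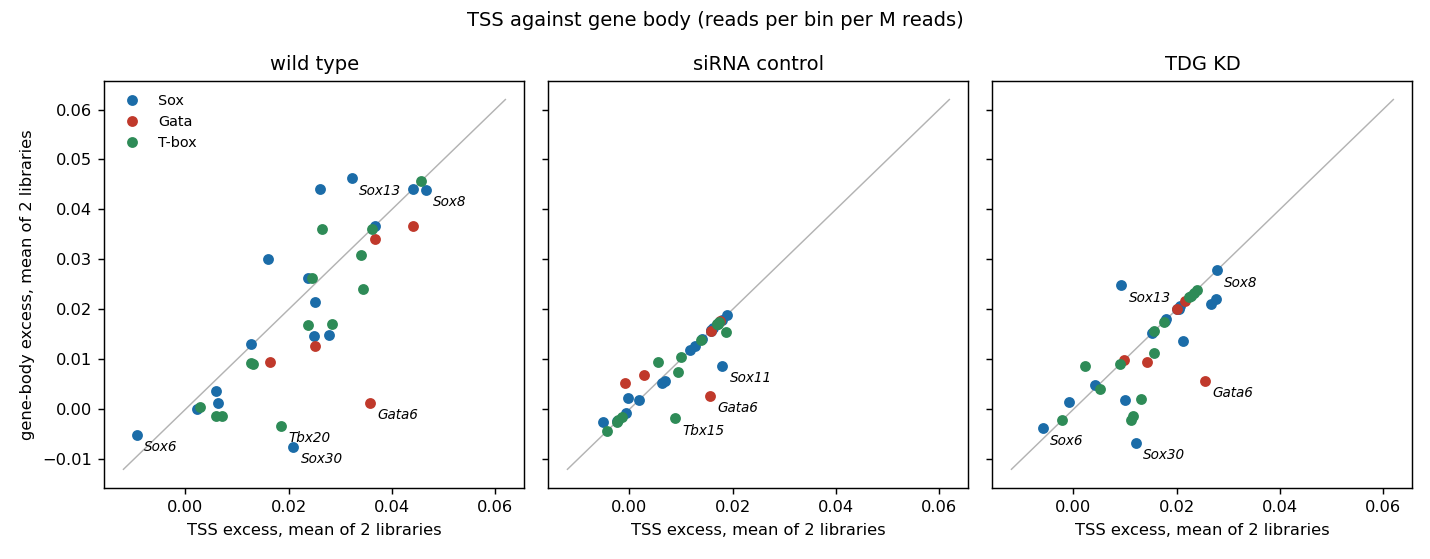
Each point is a gene, with the TSS excess on the horizontal and the gene-body excess on the vertical axis, both in reads per 100 bp bin per M reads and averaged over the 2 libraries of a condition. Most genes lie along the line of equality, Gata6 lies below it in all 3 conditions, and Sox6 is at the lower left.

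Members had CpG-rich starts more often than other genes, with high-CpG promoters at 23 of 35 (65.7%) against 48.9% of all genes. These were 11 of 16 Sox, 5 of 5 Gata and 7 of 14 T-box genes. The median member had 110 CpGs within 1000 bp of its TSS and the median gene 62. Across members the mean TSS percentile and the CpG count had a Spearman correlation of 0.178, against 0.338 across all genes, which share libraries and base composition. Within single libraries the correlation across members ran from 0.0303 in TDG KD 1 to 0.50 in TDG KD 2, where it was 0.394 across all genes, and it was below that of all genes in 4 of the 6 libraries. Sox30, Tbx18, Eomes and Sox4 had high-CpG promoters and mean percentiles of 46.3, 39.4, 44.7 and 42.8.

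Members with many neighbouring genes tended to rank higher. Across the 35, the mean percentile and the number of other gene starts within 250 kb had a Spearman correlation of 0.539, against 0.273 across all genes. Neighbours share domains and hence values, so this is a description of the map. Tbx10 had 31 other starts in that distance, Sox8 had 19, Sox10, Sox18 and Tbx21 had 15 each and Sox6 had 3. Sox15 and Tbx6 had the most, 32 each, at mean percentiles of only 71.7 and 76.2, and Sox12 had 20 at 70.0. Gata6 and Sox9, with none, were exceptions at mean percentiles of 81.7 and 74.0. Members as a whole stood in gene-poor surroundings, with a median of 4 other starts against 8 for all genes. Of the members, 6 lie on chromosome 11, whose mean excess was raised in every library, by 0.00343 to 0.00837. Set against its own chromosome, the median level of the members moved by less than 1 SD between libraries in each condition.

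Under TDG KD the median TSS excess of members was 0.0157 (SD of the library medians 0.00987, n = 2) and in siRNA control 0.0118 (SD 0.00658, n = 2), so the conditions differed by less than the spread between libraries. For all genes the medians were 0.00844 and 0.00237. Excess is taken relative to each library's own mean and depth, so a rise shared by the whole genome need not show in it. The paper describes its pulldown as giving enrichment relative to input, not absolute levels. By mass spectrometry it reports more total formylcytosine under TDG KD than in siRNA control. Whether the absolute level at these genes changed was not tested. With limma across 21153 genes, 0 genes (0%) and 0 members passed an adjusted p of 0.05 at the TSS. At an unadjusted p under 0.05 there were 182 genes and 0 members. Over gene bodies 0 of 19009 genes (0%) passed, with 172 genes and 1 member, Eomes, at an unadjusted p under 0.05. The body excess of Eomes was 0.0101 and 0.00787 in wild type, -0.00315 and -0.00128 in siRNA control, and 0.00856 and 0.00880 in TDG KD, a difference of 0.0109 ± 0.00307 (SE) between TDG KD and siRNA control with a limma adjusted p of 0.995.

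Both TDG KD libraries lay above both siRNA control libraries at the TSS of 5 members, Sox9, Sox14, Gata3, Gata4 and Eomes (background 10.8%), and below them at 0 (background 12.7%). Sox14 had 0.0296 and -0.00409 in wild type, 0.0163 and -0.00270 in siRNA control, and 0.0196 and 0.0207 in TDG KD. The limma differences of the 5 ran from 0.00450 to 0.0149, each with an adjusted p of 0.9997. Ranked as percentiles, Gata3 was the 1 member above in both libraries (background 12.3%) and 7 were below (background 19.3%): Sox12, Sox13, Gata2, T, Tbx4, Tbx6 and Tbx10. The balance of higher and lower members thus turned with the scale. The 5 were 14.3% of members, near the 14% of high-CpG promoters, and the 7 were 20.0%, near their background. Neither count is read as a direction of the set. In gene bodies 5 members were higher (background 8.49%), namely Sox9, Sox14, Gata4, Eomes and Tbr1, and 2 lower (background 13.9%), Sox30 and Tbx19. On percentiles Eomes and Tbr1 were higher (2 members, background 14.4%) and Sox12, Sox30, Tbx4 and Tbx19 lower (4 members, background 16.0%). The balance turned with the scale here as well, and with so few genes it is not read as a direction of the set.

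The 2 pairs of siRNA libraries pointed in opposite directions. Between the BHAM libraries, TDG KD 1 was higher than siRNA control 1 at 11 of 35 member starts, with a median difference of -0.00560, where 36.5% of all genes were higher. Between the EAR libraries, TDG KD 2 was higher than siRNA control 2 at 30 of 35, with a median of 0.0163, where 62.9% of all genes were. All 5 Gata starts were higher in TDG KD between the EAR libraries and 2 of 5 between the BHAM libraries. Without TDG KD 2 the median difference of the members turned from 0.00467 to -0.00214.

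**Figure D5:**
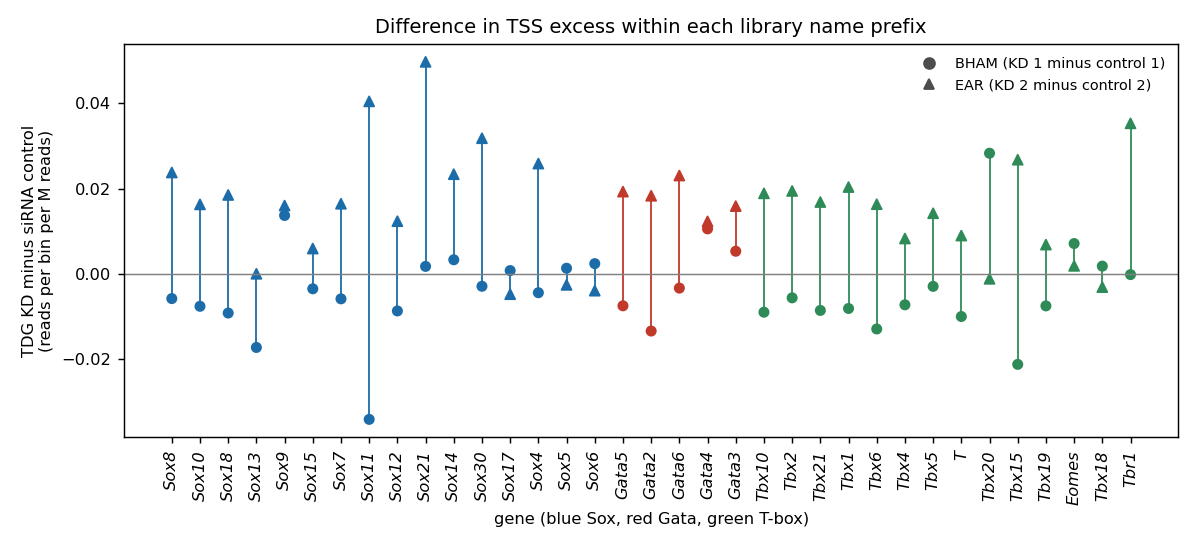
Points give the difference in TSS excess between TDG KD and siRNA control for each gene, in reads per 100 bp bin per M reads, as circles for the BHAM pair and triangles for the EAR pair. Triangles lie above 0 for 30 genes and circles for 11, and the symbols lie close together and above 0 for Sox9, Gata4 and Eomes.

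Between siRNA control and wild type the median TSS excess of members was 0.0118 and 0.0249 (SD of the library medians 0.00835 in wild type, n = 2). Both siRNA control libraries were below both wild-type libraries at 22 of 35 members, where 44.3% of all genes were, and above at 0 (background 12.8%). The 22 were 7 Sox, 4 Gata and 11 T-box genes. On percentiles, 5 members were lower (background 18.6%) and 5 higher (background 24.7%), so the lower values in excess had no counterpart on that scale. The median difference in excess was -0.0144 over members and -0.0116 over all genes. Without wild type 1 these were -0.00730 and -0.00233, and without wild type 2 -0.0228 and -0.0188, so their size depended on which wild-type library was used. Limma called 0 of 21153 genes (0%) and 0 members, with 2251 genes and 2 members, Sox10 and Gata3, at an unadjusted p under 0.05. The Gata3 difference was -0.0258 ± 0.00722 (SE) with a limma adjusted p of 0.396. In gene bodies 18 members were lower (background 50.1%) and 3 higher (background 16.2%), and on percentiles 3 were lower (background 22.5%) and 9 higher (background 25.3%). Limma called 0 of 19009 genes (0%) in bodies, with 2469 genes and 2 members, Sox10 and Eomes, at an unadjusted p under 0.05.

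Genes that share a DNA-binding fold with the members but belong to other families were counted for reference. Of 21 such genes, 11 with an HMG box such as Tcf7l1 and Lef1, 9 with a GATA-type finger such as Trps1, and the T-box gene Mga, 9 had an enriched TSS in both wild-type libraries, 8 in both siRNA controls and 3 in both TDG KD libraries. These were 42.9%, 38.1% and 14.3%, against 65.7%, 48.6% and 25.7% for the members. High-CpG promoters were more frequent among the related genes, at 18 of 21.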

How the data were processed

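5fC was measured by chemical pulldown in 6 libraries, 2 biological replicates for each of wild type, siRNA control and TDG KD, with 1 genomic input for all. The authors aligned single-end reads to mm9 with BWA (the submitters' processing notes give version 0.6.1), discarded ambiguous placements, and segmented each library separately against the input with rseg in 100 bp bins. Column 5 of the deposited files is a score, the mean of pulldown minus input reads per bin, not scaled for depth. A second deposited score grows with domain width and was not used. Depth was 20.4 to 45.9 M uniquely placed reads, taken from the supplementary material and used for scaling. No read counts per gene entered, hence there are no counting intervals and precision rests on the 2 libraries of a condition.

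TSS windows were centred on the start of the transcript with the longest coding sequence (GENCODE M1), and bodies needed at least 100 bp. Condition counts required both replicates. Excess was compared with limma 3.58.1 (R 4.3.3) over all autosomal genes with a value in every library and 3 groups, with Benjamini-Hochberg adjustment, and tested on simulated data. Python 3.11.15, pandas 2.3.3, NumPy 2.4.6 and Matplotlib 3.10.9 did the rest. Of the members, 25 matched the RefSeq promoter table (GRCm38), and 32 promoters were placed on mm9 by exact match. Members, lists and tests were chosen with earlier results of these data known. Values per library were to be given for the 3 highest and 2 lowest starts of each family and of all bodies, germ-layer genes, members with distant alternative starts, and any member called or changing state between siRNA conditions. Sox9 and Sox14 were added after their values were seen. Alternatives covered window size, start, call rule, scale, name prefix as block and each library left out.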

Additional observations from a re-analysis of the deposited data

How the results depend on the processing

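Of 125 alternative settings, 115 left their result within 1.5 times the count or 1 SD between library medians. That number says little about robustness. The SD comes from only 2 library medians, which leaving out 1 of them can hardly exceed, and many settings compared a limma count of 0 with 0. The exceptions lay mostly in TDG KD, where TDG KD 1 decides the counts. For enriched starts the 9 members became 20 with unconfident sequence counted as enriched, 31 with either replicate sufficient and 5 with the lowest 25% of enriched domains dropped, and leaving out 1 library gave 11 to 29. For enriched bodies the 8 members became 20, 26 and 4 under the same settings, and leaving out 1 library gave 8 to 26. The 7 members enriched at the start in all 6 libraries became 17 without TDG KD 1, a setting chosen after seeing the data. The median body excess in siRNA control ran from 0.00802 to 0.0139 with 1 library left out. The causes were not tested. Limma called 0 members in the 4 comparisons under every setting run. With the name prefix as a block, which pairs the siRNA libraries and was fitted for TDG KD against siRNA control alone, it also called 0 at starts and bodies. With ranks as normal scores the median difference of members at the TSS turned from 0.00467 to -0.110 between TDG KD and siRNA control, and from -0.0144 to 0.133 between siRNA control and wild type. Over all genes it turned as well, from 0.00224 to -0.0467 and from -0.0116 to 0.0355, so the turn was not particular to the members. Starts inside a wide domain share its value and cannot be resolved from their neighbours. Why the domains differed in width between libraries was not tested.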
